A study of Mus musculus with 12 samples.

Results

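The 10 genes described here encode products that osteoclasts use to form, to attach to bone and to degrade it: Nfatc1, Oscar, Calcr, Itgb3, Dcstamp, Ocstamp, Atp6v0d2, Ctsk, Acp5 and Mmp9. They are 10 of the 24881 gene entries kept from the deposited tables, and they were selected by name after measured values of the iCT and vehicle libraries were known, so their levels in those groups are given as a description with no test. RNA-seq was performed on GFP+ acute myeloid leukaemia cells, MLL-AF9 transgenic in every group, sorted from mouse bone marrow. The iCT group held 3 mice taken 3 days after doxorubicin plus cytarabine had ended, the relapse group held 4 mice taken 10 days after the same chemotherapy had ended, and the vehicle group held 5 mice. Each library came from 1 mouse, per the sample titles. The sources used here do not state what drives the transgene, how old the mice were or which gates were used besides GFP. Values are FPKM, fragment numbers divided by transcript length and by library size, so that levels can be set side by side between genes.

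Osteoclasts are multinucleated cells of the monocyte and macrophage lineage that resorb bone. They form under M-CSF and RANKL, whose receptors are encoded by Csf1r and Tnfrsf11a, and the transcription factor NFATc1 drives the programme. Precursors fuse through DC-STAMP and OC-STAMP, the mature cell attaches by the alpha v beta 3 integrin, acidifies the space beneath it with a vacuolar proton pump, and secretes cathepsin K, tartrate-resistant acid phosphatase and MMP-9.

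Start-site windows of 300 bases (250 before to 50 after each start) were available from RefSeq (GRCm38.p6) for 4 of the 10 genes, with 7 windows in all. Those of Ctsk and Acp5 are shown because Acp5 was the gene whose level followed that of Ctsk most closely across libraries, and that of Oscar because it held the most motif matches. The Ctsk window is chr3:95498960-95499259 on the plus strand, the Acp5 window is the one of its 3 with the most matches, chr9:22130549-22130848 on the minus strand, and the Oscar window is chr7:3616108-3616407 on the minus strand. Capitals mark GGAAA, the core letters bound by NFAT factors (TTTCC where it lies on the other strand), and CATGTG, an E-box of the MITF family (CACATG on the other strand).
Ctsk: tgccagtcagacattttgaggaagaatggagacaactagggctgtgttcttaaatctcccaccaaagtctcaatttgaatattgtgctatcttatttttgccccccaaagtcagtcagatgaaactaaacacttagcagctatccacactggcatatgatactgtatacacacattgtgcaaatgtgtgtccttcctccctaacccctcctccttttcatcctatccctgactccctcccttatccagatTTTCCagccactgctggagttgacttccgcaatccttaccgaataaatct
Acp5: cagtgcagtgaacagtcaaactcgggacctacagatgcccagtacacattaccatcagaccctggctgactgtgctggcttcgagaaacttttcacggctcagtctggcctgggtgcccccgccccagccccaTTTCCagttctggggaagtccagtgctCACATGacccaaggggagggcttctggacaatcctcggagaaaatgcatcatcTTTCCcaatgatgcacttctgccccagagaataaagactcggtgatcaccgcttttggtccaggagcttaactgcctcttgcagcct
Oscar: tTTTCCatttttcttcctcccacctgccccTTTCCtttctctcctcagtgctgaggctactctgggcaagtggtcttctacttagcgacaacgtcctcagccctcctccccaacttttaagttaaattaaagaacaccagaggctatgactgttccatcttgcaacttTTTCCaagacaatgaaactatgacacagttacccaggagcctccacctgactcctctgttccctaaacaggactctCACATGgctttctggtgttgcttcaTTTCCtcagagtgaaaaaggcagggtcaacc
Both strands were searched for GGAAA, for CATGTG, for a second E-box of that family written CACGTG, and for TGANTCA, the AP-1 motif. The Ctsk window held GGAAA 1 time, beginning at position 1 counted from the start. The Acp5 window shown held GGAAA at -117 and -37 and CATGTG at -90, and its other windows held GGAAA 1 time each, at -167 and -41. Oscar had GGAAA at -249, -220, -82 and 20 and CATGTG at -6. Calcr, which has 2 windows, had 1 GGAAA in them, at -65. GGAAA is common, being in 61.3% of 32851 RefSeq windows of this length, against 14.2% for CATGTG, 7.15% for the second E-box and 7.81% for the AP-1 motif. Those last 2 motifs were in 0 of the 7 windows.

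The depth behind these values differed widely. The confidence bounds in the files implied 361914 fragments in iCT mouse 1, the shallowest library, and 1225254 to 8359793 in the others, and iCT mouse 1 had 10479 genes above 0 against 12439 to 14580 elsewhere. At that depth 3 fragments amount to 4.97 FPKM for Ctsk and 6.98 FPKM for Dcstamp in iCT mouse 1, against 0.215 and 0.302 FPKM in iCT mouse 2. A gene listed at 0 may therefore be below what a library could show. The genes of MLL-AF9 leukaemia (12 genes, among them Hoxa9, Meis1, Kit and Elane) summed to 13291 to 18003 FPKM in iCT, 11714 to 16292 in relapse and 13535 to 16692 in vehicle libraries. These sums do not show that each gene was steady. Of the 11 tested, Kit and Cd34 were lower in iCT than in vehicle. Their log2(FPKM + 1) differences were -1.79 and -1.69 (limma adjusted p = 8.67e-05 and 0.00017).

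Nfatc1, the regulator of the programme, was present in every library, and its relapse levels all lay above its vehicle levels. It stood at 14.1, 6.55 and 12.6 FPKM in iCT mice 1 to 3, at 9.43, 11.8, 12.4 and 11 in relapse mice 1 to 4, and at 6.81, 6.86, 5.37, 7.28 and 7.34 in vehicle mice 1 to 5. The relapse and vehicle groups did not overlap, while iCT mouse 2 lay within the vehicle range. Nfatc1 averaged 11.1 ± 1.29 FPKM in relapse (SD, n = 4) and 6.73 ± 0.799 in vehicle (n = 5), a log2(FPKM + 1) difference of 0.65 (SE 0.19). By limma over all 12 libraries this did not pass the threshold of 0.05 (adjusted p = 0.18, unadjusted p = 0.00489). It passed with array weights (adjusted p = 0.0167) and in a fit of the relapse and vehicle libraries alone (adjusted p = 0.0245), where 409 of 10833 genes (3.78%) were called higher in relapse. With each library left out in turn the difference was 0.58 to 0.72.

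The receptor genes were near 0 in most libraries, whereas the integrin gene was above 0 in all of them. Oscar, a co-stimulatory receptor that recognises collagen, was at 0, 0.711 and 1.72 FPKM in iCT mice 1 to 3, at 1.35, 0, 0 and 0.146 in relapse mice 1 to 4, and listed at 0 in all 5 vehicle mice. Calcr, the calcitonin receptor, was at 0, 0.294 and 0.0778 FPKM in iCT mice, at 0.0957 in relapse mouse 1, and listed at 0 in the other relapse and all vehicle mice. Both were below the filter for testing (1 FPKM in at least 3 libraries), and in iCT mouse 1 the value of 3 fragments was 5.16 FPKM for Oscar, above every value of that gene. Itgb3, the beta 3 integrin chain, which platelets and megakaryocytes also carry, was at 4.74, 1.26 and 2.52 FPKM in iCT, at 5.16, 4.73, 4.08 and 6.35 in relapse, and at 2.32, 3.95, 3.01, 3.42 and 3.21 in vehicle. Every relapse library exceeded every vehicle library for Itgb3, whereas the iCT values spread across the vehicle range on both sides. Its relapse minus vehicle difference was 0.54 (SE 0.24, limma adjusted p = 0.329). Nfatc1 and Itgb3 were the 2 of 10 genes with all relapse values above all vehicle values, an order that 9.72% of the genes tested showed.

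The fusion genes were at or close to 0 outside the iCT libraries. Dcstamp was at 5.9, 1.62 and 1.74 FPKM in iCT mice 1 to 3, at 0.21 in relapse mouse 1, and listed at 0 in relapse mice 2 to 4 and in all vehicle mice. Ocstamp was at 8.22, 1.65 and 1.45 FPKM in iCT, at 0.136 in relapse mouse 4 and 0 in the other relapse mice, and at 0.16 and 0.185 in vehicle mice 1 and 4 and 0 in the rest. All iCT values lay above all others for both genes. The high value of iCT mouse 1 rested on few fragments, about 1.92 for Dcstamp and 6 for Ocstamp, whereas iCT mice 2 and 3 had 23.6 and 19 for Dcstamp and 30 and 20 for Ocstamp. Atp6v0d2, the d2 subunit of the vacuolar proton pump, which is also needed for fusion in mice, was at 24, 4.06 and 1.99 FPKM in iCT, at 0.408, 0.0912, 0.0717 and 0.103 in relapse, and at 0.427, 0, 0.952, 0.0706 and 0.398 in vehicle. Its iCT values were all above the others, and its relapse values lay within the vehicle range. Dcstamp, Ocstamp and Atp6v0d2 met the filter for testing through their iCT values alone, so they could enter the test only by being high there.

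The secreted enzymes were the most abundant of the 10 in iCT, and Mmp9 and Acp5 were so in relapse and vehicle as well. Ctsk, which encodes the collagen-degrading protease cathepsin K (chromosome 3, 95499210 to 95509387, GRCm38), was at 277, 75 and 61.1 FPKM in iCT mice 1 to 3, at 33.1, 0.152, 0.239 and 3.27 in relapse mice 1 to 4, and at 0, 1.89, 0, 2.47 and 0.19 in vehicle mice 1 to 5. All iCT libraries were above all others, and relapse mice 1 and 4, with 146 and 18.9 implied fragments, lay between the vehicle and the iCT values. The confidence bounds of relapse mouse 4 (1.77 to 4.77 FPKM) overlapped those of vehicle mouse 4 (1.39 to 3.55). Acp5, tartrate-resistant acid phosphatase (chromosome 9, 22126727 to 22135746), was at 347, 82.2 and 74.9 FPKM in iCT, at 42.2, 14.1, 17.3 and 14.7 in relapse, and at 11.3, 10.4, 10.8, 23.8 and 13.8 in vehicle. Unlike Ctsk, it was present in every vehicle library. Mmp9, a gelatinase that neutrophils also store, was at 328, 93.8 and 193 FPKM in iCT, at 87.9, 28.9, 87.2 and 43.5 in relapse, and at 10.9, 26.8, 33.4, 49 and 30.9 in vehicle (chromosome 2, 164948219 to 164955849). Its iCT libraries exceeded the rest, and its relapse and vehicle ranges overlapped.

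**Figure D1:**
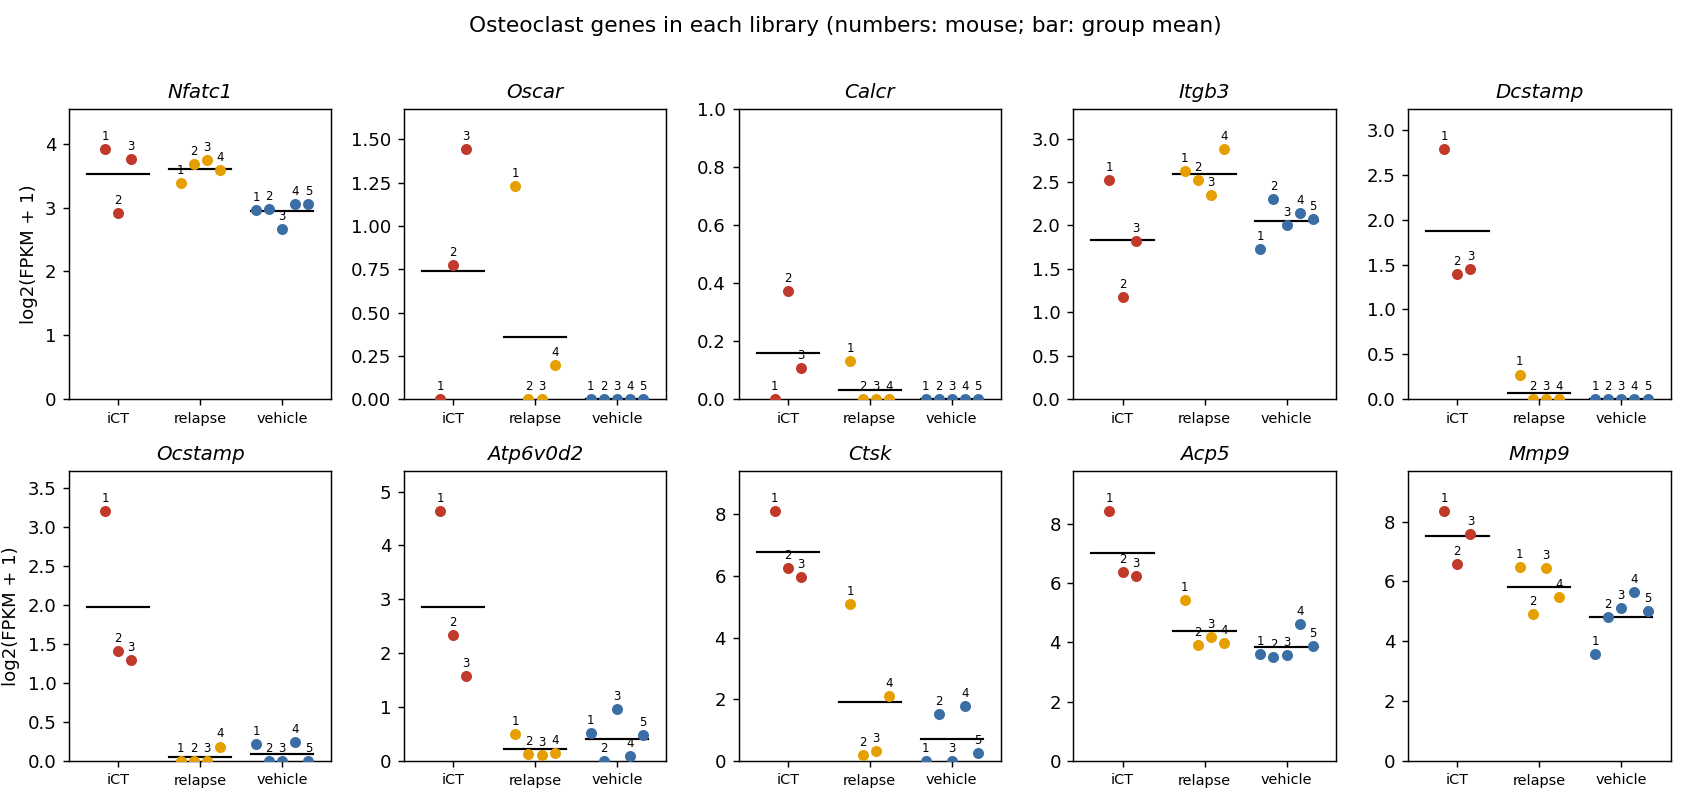
Level of each of the 10 genes in every library as log2(FPKM + 1), with a scale of its own per panel; points are libraries numbered by mouse, and black bars are group means of the plotted values. For Ctsk, Acp5, Mmp9, Dcstamp, Ocstamp and Atp6v0d2 the 3 iCT points lie above all others, and relapse mouse 1 is the highest relapse point for 7 of the 10 genes. Among those 7, the Mmp9 point is nearly level with that of relapse mouse 3. The Dcstamp, Calcr and Atp6v0d2 points of relapse mouse 1 rest on at most 3 implied fragments.

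In iCT against vehicle the enzyme, fusion and pump genes were higher, and the regulator and the integrin were not separated. The log2(FPKM + 1) difference was 6.06 for Ctsk, 3.18 for Acp5, 2.69 for Mmp9, 2.44 for Atp6v0d2, 1.88 for Dcstamp and 1.88 for Ocstamp, against 0.59 for Nfatc1 and -0.22 for Itgb3. Those first 6 lay past limma's threshold, 3 of them having met the filter through iCT alone, and 3.31% of the genes tested were called higher in iCT; this is no test, and nothing is read from it, because these values chose the genes. The same 6 had every iCT library above every vehicle library, as did 5.49% of the genes tested. The median difference of the 10 genes was 1.88, beside -0.08 over the genes tested. Just inside the calls, Dcstamp and Ocstamp differed by 1.88, and the next gene, Oscar, differed by 0.74 with no test. The shallow library weighed on the size: 8 of the 10 genes had their highest iCT value in iCT mouse 1, where 34.1% of all genes tested had their highest iCT value, and without it the differences were 5.39 for Ctsk, 2.47 for Acp5, 2.26 for Mmp9, 1.55 for Atp6v0d2, 1.42 for Dcstamp and 1.26 for Ocstamp. With that library left out, 5 of the 10 genes were tested and 3 called, since the genes that had passed the filter through iCT alone then fell below it. In bulk RNA from a sorted population, a change in how many cells of a type are present and a change in RNA per cell cannot be told apart.

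In relapse, sampled 10 days after chemotherapy, the 6 genes were lower than in iCT. The relapse minus iCT difference was -4.85 for Ctsk, -2.64 for Acp5, -1.68 for Mmp9, -2.64 for Atp6v0d2, -1.81 for Dcstamp and -1.92 for Ocstamp, beside a median of 0.16 over all genes tested, and every relapse library lay below every iCT library for each of them. The share of all genes tested with that order was not computed. Nothing is read from the order, because the iCT values chose the genes. The relapse minus iCT difference was 0.75 for Itgb3 and 0.06 for Nfatc1. Of the 10 genes 5 were called lower, Mmp9 not among them, where 3.1% of the genes tested were called lower and 6.62% higher; nothing is read from that count, because the iCT values chose the genes. It was 1 when only relapse and iCT were fitted, and of the 5 genes tested without 1 iCT mouse it was 2 without mouse 1, 3 without mouse 2 and 2 without mouse 3. Ratios of group means between relapse and iCT, given where no library was at 0, were 0.0668 for Ctsk, 0.131 for Acp5, 0.0168 for Atp6v0d2 and 0.302 for Mmp9.

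Set against vehicle, relapse showed 0 of the 8 genes tested past the threshold. Differences were 1.21 for Ctsk (SE 0.88, adjusted p = 0.566 by limma), 0.54 for Acp5 (SE 0.45), 1.01 for Mmp9 (SE 0.46, adjusted p = 0.34), -0.05 for Ocstamp (SE 0.32), 0.07 for Dcstamp (SE 0.26) and -0.20 for Atp6v0d2 (SE 0.47). Adjusted p was 0.626 for Acp5 and 0.896 to 0.975 for the last 3. Those 3 genes met the filter through iCT alone and were under 1 FPKM in every relapse and vehicle library. Nothing is read from their p-values. When only relapse and vehicle were fitted they were not tested, and 5 of the 10 genes were. Over all 11019 genes limma called 0 in this comparison (0%), with 1604 at an unadjusted p under 0.05, of which Nfatc1, Itgb3 and Mmp9 are 3, so that the p-values do not show that levels were alike. Mean Mmp9 was 2.05 times and mean Acp5 1.57 times as high in relapse as in vehicle. Much of the Ctsk and Acp5 difference lay in 1 mouse, since without relapse mouse 1 they were 0.15 and 0.19, while that of Nfatc1 was 0.72.

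Relapse mouse 1 stood apart from the other relapse mice in Ctsk, Acp5 and, at a low level, Oscar. Of the 10 genes 7 had their highest relapse value there, where 29.6% of the genes tested did. Among the 7, Mmp9 was nearly level with relapse mouse 3 (87.9 against 87.2 FPKM). The Dcstamp, Calcr and Atp6v0d2 values there rested on 0.215, 0.378 and 3 implied fragments. Its Ctsk of 33.1 FPKM was 10.1 times the next highest relapse value, and its Acp5 of 42.2 was 2.43 times. The ratio of Ctsk to Acp5 was 0.785 in that mouse and 0.798, 0.912 and 0.815 in the iCT mice, compared with 0.0108, 0.0138 and 0.222 in the other relapse mice and 0.182, 0.104 and 0.0137 in the vehicle mice that had Ctsk above 0. Among 11019 genes ranked by the gap on the log2(FPKM + 1) scale between relapse mouse 1 and the highest of the other relapse mice, Ctsk was at rank 3, with a gap of 3.00, and Acp5 at rank 14, with 1.24. Other genes of the pathway went both ways: of 80 entries of the 5 lists described further on that were above 0 in relapse, 21 were highest and 17 lowest in relapse mouse 1. Those highest there included Ckb and Tm4sf19, picked out after their values were seen. Ckb, the brain-type creatine kinase that osteoclasts use, had 11.5 FPKM there against 1.12 to 2.55 in the others, and Tm4sf19, listed at 0 in the other relapse and all vehicle mice, had 0.594. Trem2, at 0.352 FPKM against 0.371 to 1.07 in the others, was lowest there, as was Nfatc1 among the 10 genes.

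The complement genes of tissue macrophages were ordered otherwise among libraries. C1qa, a chain of complement C1q, was at 21.9, 34.2 and 74.6 FPKM in iCT mice 1 to 3, at 1.42, 1.19, 1.69 and 1.89 in relapse and at 1.91 to 6.78 in vehicle, so that it was lowest of the iCT mice in mouse 1, where Ctsk was highest, and lay within the range of the other relapse mice in relapse mouse 1. C1qc, at 22.6, 35.5 and 56.7 FPKM in iCT and 1.47 in relapse mouse 1, had the same order. Of 18 tissue macrophage genes above 0 in relapse 3 were highest and 7 lowest in relapse mouse 1. No test compares 2 genes across single libraries here, and these are given as values.

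**Figure D2:**
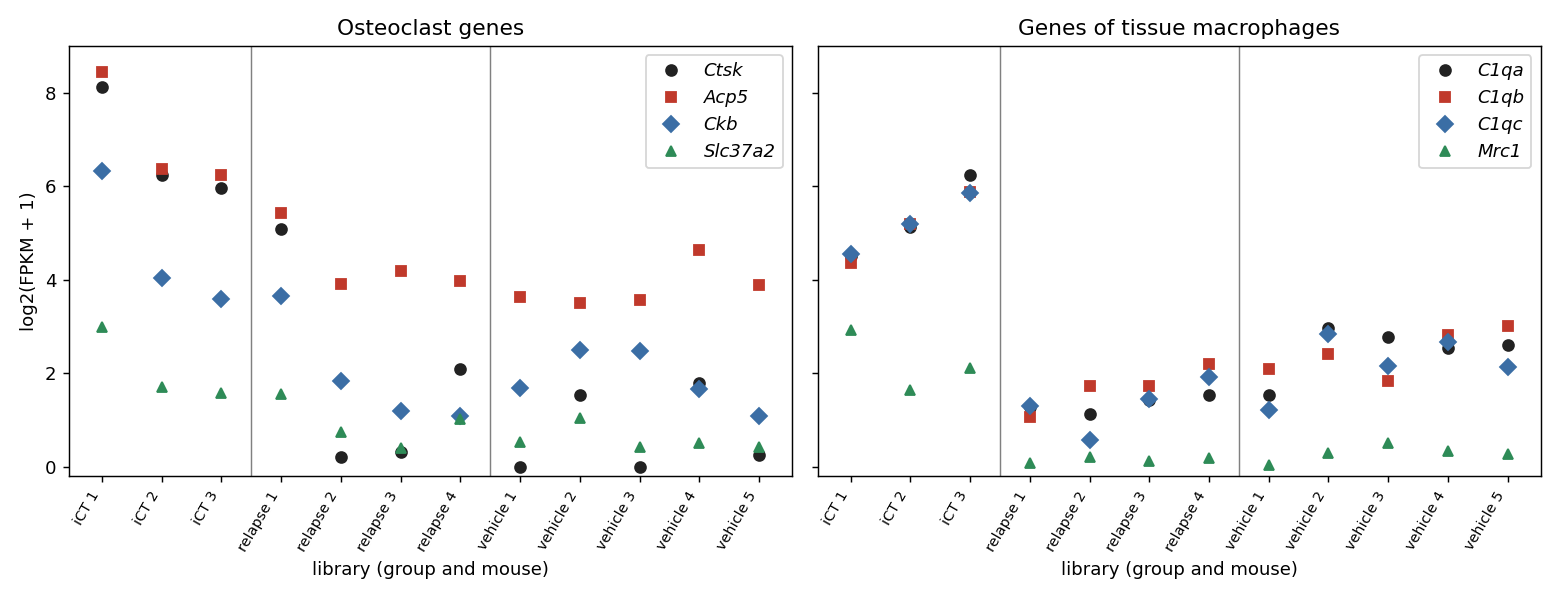
log2(FPKM + 1) of 4 osteoclast genes (left) and 4 genes of tissue macrophages (right) in the 12 libraries, with grey lines between groups. Ctsk and Acp5 are highest in iCT mouse 1 and stand out in relapse mouse 1 (33.1 and 42.2 FPKM), whereas C1qa is highest in iCT mouse 3 (74.6 FPKM) and is 1.42 FPKM in relapse mouse 1.

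Among other genes of acid secretion and matrix breakdown, 2 were called higher in iCT, and the broadly used proton pump and chloride exchanger genes did not pass the test. Of 18 such genes 16 were tested, with 2 called higher, 1 of them having met the filter through iCT alone, and 1 lower in iCT, where 3.31% and 6.31% of all genes tested were, and their median difference was -0.13. Slc9b2, a sodium/proton antiporter of osteoclasts, was at 4.71, 2.26 and 1.93 FPKM in iCT, at 0 to 0.153 in relapse and at 0 to 0.0796 in vehicle (difference 1.90); it met the filter through iCT alone, so its call is no independent test. Ckb was at 79.1, 15.3 and 11 FPKM in iCT and 1.13 to 4.68 in vehicle (difference 2.76, limma adjusted p = 0.0239; 1.92 and 0.078 without iCT mouse 1). Ostm1, the partner of the chloride exchanger ClC-7, fell by 0.46 (adjusted p = 0.0335; 0.0871 without iCT mouse 1). Tcirg1, the pump subunit of resorbing osteoclasts, was at 44.7 to 56.5 FPKM in iCT and 33.4 to 46.1 in vehicle, Clcn7 differed by 0.16 and Car2, carbonic anhydrase 2, by 0.52, and none of these passed the test. Without iCT mouse 1 the number of genes called in this list was 0, in part because Slc9b2 was then not tested.

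Of 11 other genes of fusion and of the cell surface, 8 were tested, 2 were called higher and 1 lower in iCT, where 3.31% and 6.31% of all genes tested were. Slc37a2, a phosphate-linked sugar transporter found in osteoclasts, was at 6.91, 2.28 and 1.98 FPKM in iCT and 0.345 to 1.07 in vehicle (difference 1.50, limma adjusted p = 0.0189; 1.05 and 0.0499 without iCT mouse 1). Adam8, a metalloproteinase, rose by 1.06 (adjusted p = 0.0398) but was called in 4 of 12 fits that left out 1 library. Cd44, an adhesion receptor, fell by 0.71 (adjusted p = 0.000881) and was called in all 12. Siglec15, a receptor of osteoclast fusion, was at 0, 0.349 and 0.154 FPKM in iCT and listed at 0 in all relapse and vehicle mice.

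Most receptor and signalling genes upstream did not pass the test between iCT and vehicle. Tnfrsf11a, which encodes RANK, was at 0, 0.18 and 0.682 FPKM in iCT, 0.00379 to 0.312 in relapse and 0 to 0.239 in vehicle. Csf1r differed by -0.30 and Traf6, an adaptor of RANK, by 0.01, neither past the test. Of 24 such genes 22 were tested, with 1 called higher and 4 lower in iCT, where 3.31% and 6.31% of all genes tested were. Trem2, an immunoreceptor of osteoclasts and macrophages, was at 8.11, 4 and 4.58 FPKM in iCT and 0.789 to 2.32 in vehicle (difference 1.50, limma adjusted p = 0.0093), and it was called in 12 of 12 fits that left out 1 library. Its adaptor Tyrobp (DAP12) fell by 0.40 and the adaptor Lat2 fell by 1.98 (adjusted p = 0.0299 and 0.000645), and the kinase Tec fell by 0.82 (adjusted p = 0.0307). When iCT mouse 1 was left out, adjusted p was 0.101 for Tyrobp, 0.0844 for Tec and 0.141 for the fourth, the calcineurin subunit gene Ppp3ca, and 2 genes of the list were called.

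Of 16 other transcription factors of the lineage 11 were tested and 2 called higher in iCT: Jdp2, by 0.61 (limma adjusted p = 0.0367), and Spi1, which encodes PU.1, by 0.36 (adjusted p = 0.0482). Each was called in few of the 12 fits that left out 1 library, 3 for Jdp2 and 2 for Spi1. Fos, an AP-1 subunit required for osteoclasts in mice, was at 1.63 to 3.81 FPKM in iCT and 0.772 to 3.55 in vehicle, and Mitf was under 1 FPKM in every library. Among 14 inhibitors of osteoclast formation 11 were tested, and 2 were called lower. The counts of both lists stand beside 3.31% of all genes tested called higher and 6.31% lower in iCT. Irf8, a factor that restrains Nfatc1 in mice, was at 9.1, 8.67 and 10.1 FPKM in iCT and 27.8 to 60.2 in vehicle (difference -2.04, limma adjusted p = 0.00158), with relapse at 26.6 to 71.4. Rbpj fell by 0.46 (adjusted p = 0.0283; 0.062 without iCT mouse 1). The decoy receptor gene Tnfrsf11b and the ligand genes Tnfsf11 (RANKL) and Csf1 reached at most 0.05, 0.234 and 1.54 FPKM in any library. In relapse against vehicle 0 genes of these 5 lists were called.

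**Figure D3:**
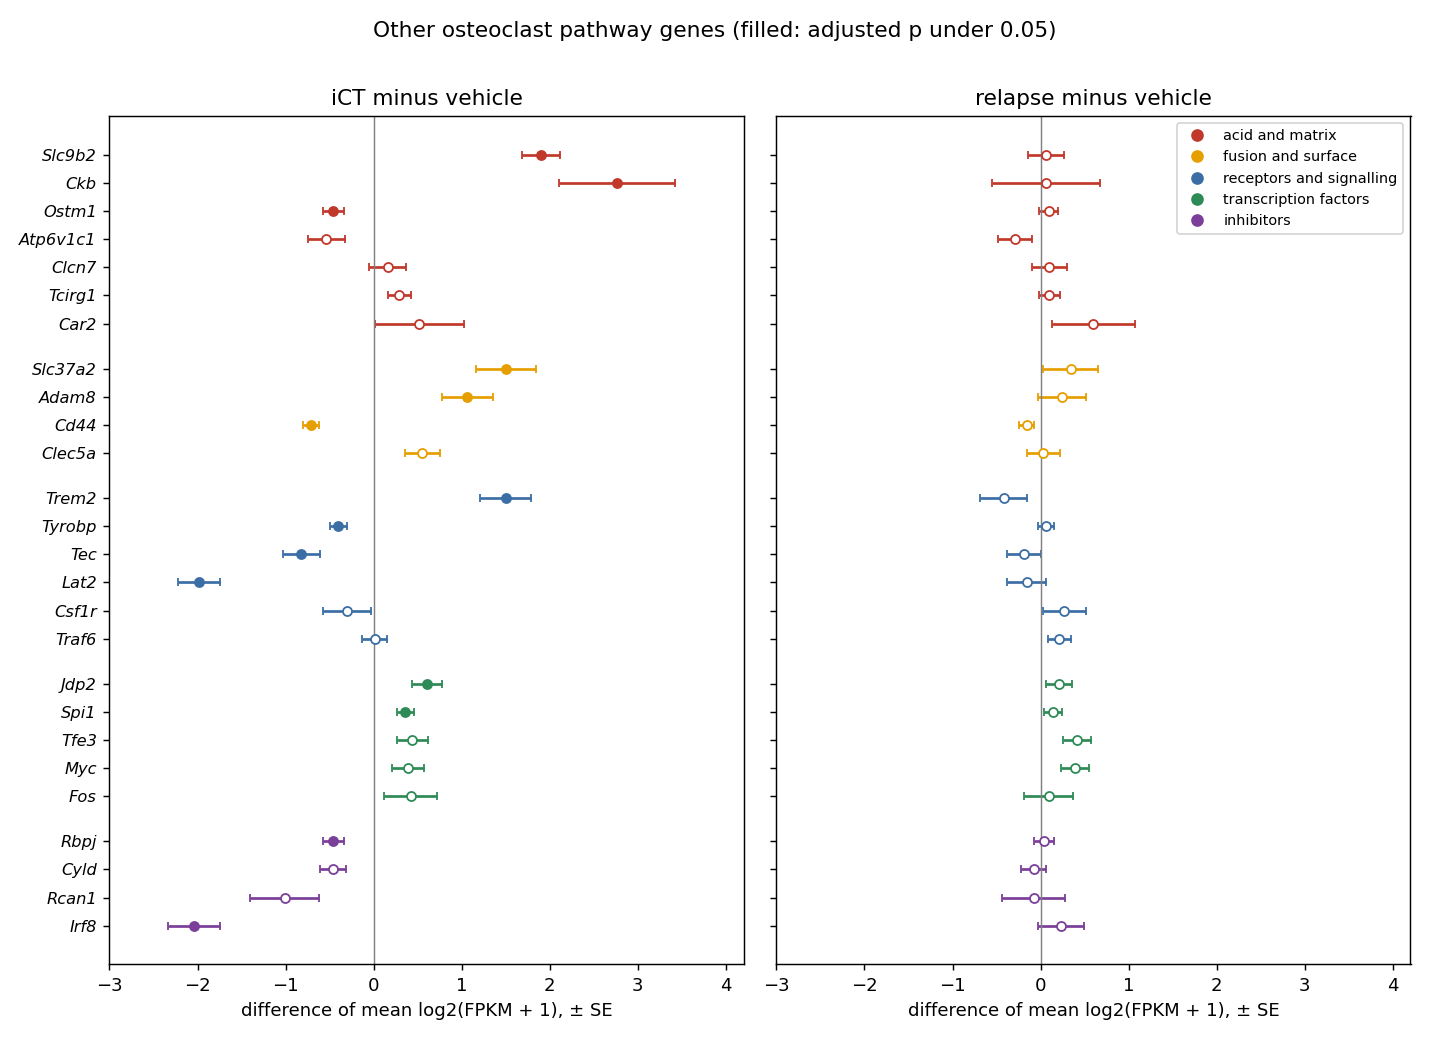
Differences of mean log2(FPKM + 1) with their SE for other genes of the osteoclast pathway, iCT minus vehicle (left) and relapse minus vehicle (right), coloured by role; filled points passed an adjusted p of 0.05. Slc9b2, Ckb, Slc37a2 and Trem2 lie to the right and Irf8 and Lat2 to the left in iCT, and no point is filled in relapse.

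Markers of other marrow cells also moved in iCT. Of 20 tissue macrophage genes 14 were tested, 8 were called higher (among them C1qa by 2.82, limma adjusted p = 0.000974, and Mrc1, which met the filter through iCT alone) and 1 lower (Adgre1, F4/80, by -1.87, adjusted p = 0.000192). Their summed level was 313 to 489 FPKM in iCT, 170 to 233 in relapse and 250 to 294 in vehicle, and Marco was listed at 0 in every relapse and vehicle mouse. Of 14 monocyte genes 6 of 13 tested were lower and 1 higher, with sums of 887 to 1132 FPKM in iCT, 1587 to 2958 in relapse and 2919 to 3428 in vehicle. Of 13 neutrophil genes 3 were called higher and 0 lower, with sums of 15420 to 19641 FPKM in iCT, 6857 to 16010 in relapse and 4151 to 15049 in vehicle. S100a8 and S100a9, the most abundant of them, made up most of these sums and were not called (limma adjusted p = 0.0767 and 0.071). Retnlg went the other way, with a mean of 23.2 FPKM in iCT and 118 in vehicle, and was not called (limma adjusted p = 0.0551). The megakaryocyte list of 11 genes had 2 tested, of which Pf4 was higher by 2.76. Sums of the list were 11.9 to 27.4 FPKM in iCT, 2.71 to 5.47 in relapse and 2.01 to 8.32 in vehicle. Pf4 alone gave 6.23, 7.22 and 21.8 FPKM of the iCT sums and 0 to 2.18 FPKM in vehicle. The median difference of all 11 genes was -0.04, so the higher sums do not describe the list as a whole. Itga2b, the integrin partner of Itgb3 on platelets, was at 3.72, 0.327 and 0.983 FPKM in iCT, 0.162 to 0.588 in relapse and 0 to 0.89 in vehicle. Osteoblast and stromal genes had 0 of 9 tested genes called, with sums of 20.4 to 40.6 FPKM in iCT, 14.9 to 32.4 in relapse and 9.61 to 49.4 in vehicle. Erythroid genes were lower in 3 of 7 entries tested, mast cell and basophil genes in 1 of 4, lymphoid genes in 1 of 6, the 1 endothelial gene tested, and leukaemia genes in 2 of 11 (Kit and Cd34). These counts stand beside 3.31% of all genes tested called higher and 6.31% lower in iCT. Of the fits that left out 1 library, 2 of 12 called the neutrophil gene Cxcr2, 4 of 12 the lymphoid gene Cd79b and 3 of 12 the endothelial gene Pecam1. The part of any of these in the osteoclast gene levels was not tested.

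**Figure D4:**
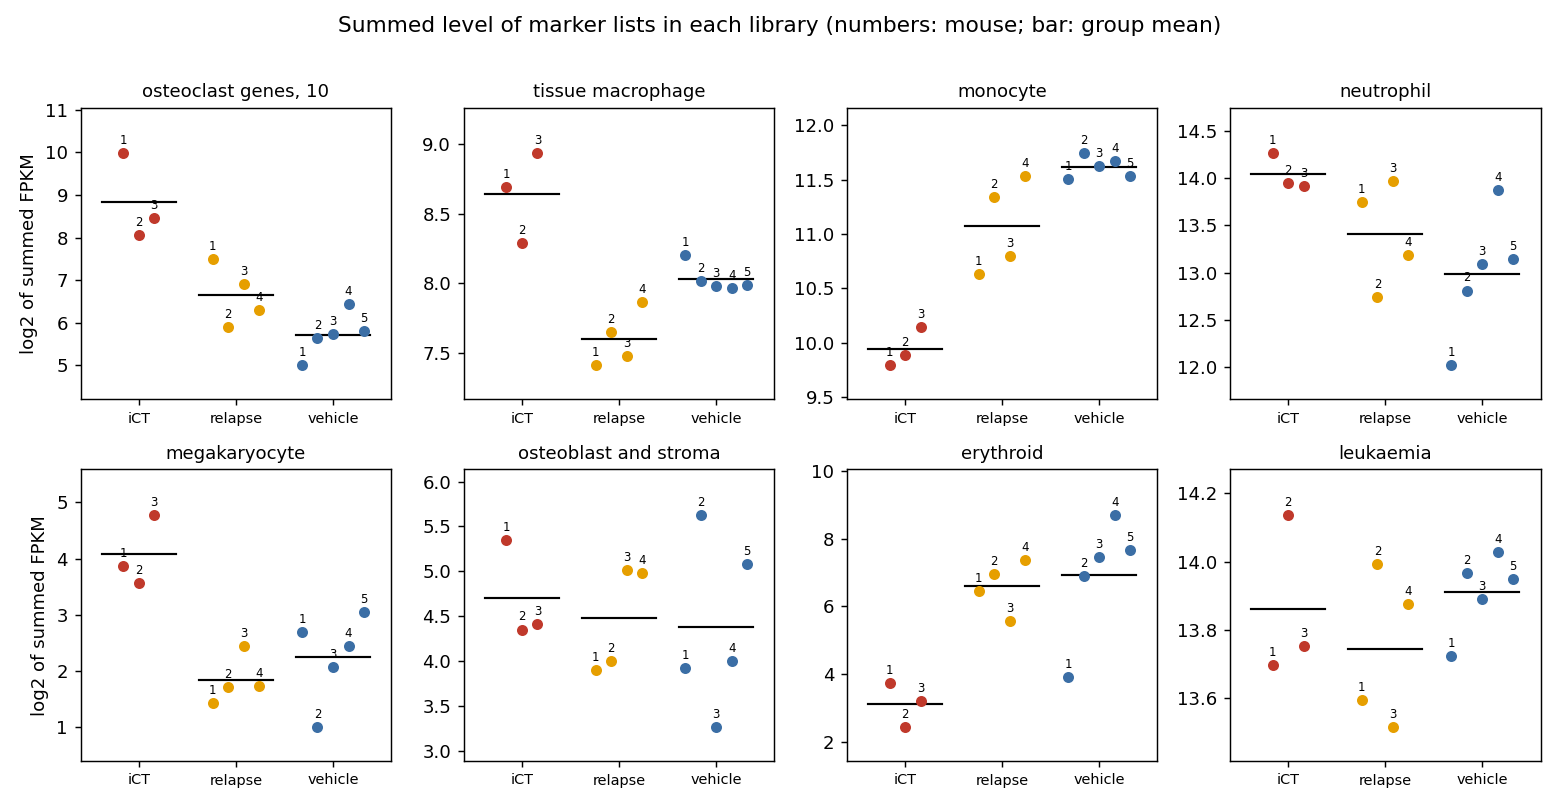
Summed FPKM of 8 marker lists in each library on a log2 axis that does not begin at 0; points are libraries numbered by mouse and bars are means of the plotted values. Sums of the 10 osteoclast genes are 267 to 1009 FPKM in iCT, 59.7 to 180 in relapse and 32 to 86.3 in vehicle, and those of tissue macrophage genes are 313 to 489 in iCT, 170 to 233 in relapse and 250 to 294 in vehicle.

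The gene most like Ctsk across libraries was another of the 10. Genes were ranked by the smaller of the Pearson correlations of log2(FPKM + 1) with Ctsk over the 12 libraries and over the 11 without iCT mouse 1, which share the group differences and are given with no p. The 10 genes were chosen with iCT and vehicle values known. Their ranks therefore follow in part from that choice, and nothing is read from them. Acp5 was at rank 1 of 11018 (0.946 and 0.940) and Slc37a2 at rank 2 (0.939 and 0.943). Ifitm2, Phlda3, Tbkbp1, Shq1, Srm, Rbmxl1, Rrp15 and Gemin6 completed the 10 highest, with 0.884 to 0.930 over the 11 libraries for all but Slc37a2 and Acp5. Of the other osteoclast genes tested, Dcstamp was at rank 20, Ocstamp at 86, Mmp9 at 102 and Atp6v0d2 at 226, whereas Nfatc1 was at 2455 and Itgb3 at 6141. By mean level the order in iCT was Mmp9 (205 ± 118 FPKM, SD, n = 3), Acp5 (168 ± 155) and Ctsk (138 ± 121), then Nfatc1 (11.1 ± 4.01) and Atp6v0d2 (10 ± 12.2). These SDs are between mice and are not the spread of a difference between genes of the same library. In iCT mice 1 to 3 the ratio of Ctsk to Acp5 was 0.798, 0.912 and 0.815. That of Ctsk to Mmp9 was 0.843, 0.799 and 0.317. Differences between genes were not tested. In relapse and in vehicle Nfatc1 ranked above Ctsk, at 11.1 ± 1.29 against 9.19 ± 16 FPKM in relapse (n = 4) and 6.73 ± 0.799 against 0.91 ± 1.18 in vehicle (n = 5).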

How the data were processed

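RNA-seq libraries of sorted leukaemia cells from 12 mice were analysed, 1 library per mouse and grouped by sample title; separate mice, not technical repeats, give the spread. The authors deposited, per the file headers, Cufflinks gene tables of FPKM with bounds of a 95% confidence interval for 24883 entries; 2 with a failed estimate were left out. STAR and Cufflinks are named in the submitters' processing notes, without versions or options. Those notes give mm9 as the build; the loci in the tables nevertheless overlapped the same RefSeq gene of GRCm38 for 22767 of 22916 single-locus symbols (99.3%) and are given as GRCm38. No source used here states the gene models, strandedness or the treatment of reads shared between overlapping genes. The Acp5 entry overlaps Mir680-2, and the Calcr entry overlaps Mir489 and Mir653.

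Fragments behind a value were estimated from the deposited bounds, taking the interval as 2 Poisson SDs on either side. At low values 44.6% to 47.1% per library came out whole within 0.02, so whole reads were not recovered and no count test was run. Estimates and the value of 3 fragments cover counting error only.

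Entries at 1 FPKM or more in at least 3 libraries (11019) were tested as log2(FPKM + 1), which understates changes of low genes, with limma 3.58.1 in R 4.3.3, with 1 model of all 12 libraries, group as its only term, a variance trend, and Benjamini-Hochberg adjustment over all genes tested at 0.05; the procedure was tested on simulated data. The 10 genes and the lists were chosen with earlier results of these data known, so no p adjusted over a list alone is given. Named are the 10 genes, up to 4 tested genes of each list with the smallest p in iCT against vehicle, a set of pathway genes given always (1 of which is not reported here), and the 10 most like Ctsk. Tm4sf19, Marco and the ranking of genes in relapse mouse 1 were added after their values were seen. Alternatives were a pseudocount of 0.1, no filter, median-of-ratios and quantile scaling, array weights (statmod 1.5.0), a replicate block, each comparison alone and each library left out.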

Additional observations from a re-analysis of the deposited data

Results flagged for a closer look

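Values that stood apart from the rest of their group were looked for in the 17 sets of 4 or 5 libraries that were not all equal, by the gap between the most extreme library and its neighbour relative to the whole range of the group. Such a gap was found in 9 of them. The cut-offs used are passed by about 1 in 20 sets of normally distributed values. FPKM values with many zeros are not of that kind, so the 9 cannot be set against that rate. The sets share libraries and are not independent, and genes at 0 in all but 1 library meet the criterion by construction.

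Relapse mouse 1 was the high library 6 times: Ctsk at 33.1 FPKM, Acp5 at 42.2, Oscar at 1.35, Atp6v0d2 at 0.408, Dcstamp at 0.21 and Calcr at 0.0957. The Dcstamp and Calcr values rested on less than 1 implied fragment (0.215 and 0.378) and the Atp6v0d2 value on 3, whereas Oscar rested on 5.62, Ctsk on 146 and Acp5 on 141. Ocstamp was at 0.136 FPKM in relapse mouse 4, about 1 fragment, with the other relapse mice at 0. In vehicle, Acp5 was high in mouse 4 at 23.8 FPKM, and Nfatc1 was low in mouse 3 at 5.37 FPKM. The cause of these values was not tested.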

How the results depend on the processing

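No difference of the 10 genes that had been called turned round under any alternative. For iCT minus vehicle the number of genes called, 1060, became 457 with array weights, 197 with the replicate block and 351 when only iCT and vehicle were fitted. It was 569 to 2722 with 1 library left out (569 without vehicle mouse 5, 618 without vehicle mouse 3, 686 without iCT mouse 1 and 2722 without iCT mouse 2). The split was 365 higher and 695 lower, against 497 and 616 after median-of-ratios scaling and 493 and 606 after quantile normalization. Of the 10 genes 6 were called; 3 were called without iCT mouse 1 or mouse 3 and 4 without mouse 2, with 5 genes tested each time because 3 then fell below the filter, and 5 were called with the replicate block and in the groups alone. Their median of 1.88 became 3.00 with a pseudocount of 0.1, which enlarges changes of low genes, and was 1.34 to 2.15 with 1 library left out.

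For relapse minus vehicle the count of 0 became 1 with no filter, 971 with array weights and 612 in the groups alone, and was 0 to 5 with 1 library left out (5 without iCT mouse 1, 1 without vehicle mouse 4). Nfatc1 was called with array weights and in the groups alone (0.64 and 0.65). For relapse minus iCT, 1071 genes (729 higher, 342 lower) became 603 with array weights, 372 with the replicate block and 252 in the groups alone, with 529 to 1855 when 1 library was left out (529 to 593 without a relapse mouse and 1855 without iCT mouse 3); the split was 494 and 516 after median-of-ratios scaling and 470 and 429 after quantile normalization. Of the 10 genes 5 were called in it; 1 was called in the groups alone, 3 without iCT mouse 1 (1 of them higher) or mouse 2 and 2 without mouse 3, with 5 genes tested whenever an iCT mouse was left out. The cause was not tested. Same-numbered mice did not deviate together to a marked degree: 0 of 10 such pairs had deviations that correlated above 0.1. The highest was 0.099, for iCT mouse 1 and relapse mouse 1. A low correlation cannot show that the mice were unpaired. Across all alternatives, 555 differences of single genes moved by less than the spread or kept their side of the threshold, 13 moved further, and 2, those of Nfatc1 given above, came past the threshold. Array weights gave iCT mouse 1 the lowest weight, 0.1. Genes under about 3 fragments in a library, which in iCT mouse 1 is 4.97 FPKM for Ctsk, are limited by depth.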

Other observations

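Other genes that set relapse mouse 1 apart were chosen after their values were seen. They included Phlda3, a target of p53, at 6.93 FPKM in relapse mouse 1 against 1.49 to 1.96 in the other relapse mice, with 39.9, 24 and 34 in iCT and 0.111 to 0.642 in vehicle. Phlda3 was also among the 10 genes most like Ctsk. The monocyte gene Ly86 was low in the same library, at 22.1 FPKM against 35.5 to 85.1 in the other relapse mice, and at 0 to 6.08 in iCT and 48.2 to 67.6 in vehicle, as was Lat2, at 12.8 FPKM against 22.9 to 27.9 in the other relapse mice and 3.89 to 6.71 in iCT. Irf8 stood at 26.6 FPKM in relapse mouse 1 and at 49.3 to 71.4 in the others. For each of these 4 picked genes relapse mouse 1 was thus the relapse library closest to the iCT range, as it was for Ctsk and Acp5. The lists went both ways, counting genes with no overlap between relapse and iCT. It was closest for 5 of 6 monocyte genes and 8 of 23 genes of the 5 pathway lists. For neutrophil genes it was 0 of 4, for erythroid genes 1 of 6 and for leukaemia genes 1 of 4. The share over all genes was not computed. Among tissue macrophage genes with no overlap between relapse and iCT, relapse mouse 1 was the closest for 1 of 13, Maf, at 2.06 FPKM against 0.84 to 1.63 in the other relapse mice. No test applies to 1 library, and what sets it apart was not tested.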
